A study of Mus musculus with 24 samples.

Results

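The enzymes described here are the UDP-glucuronosyltransferases (Ugt), sulfotransferases (Sult) and glutathione S-transferases (Gst) of mouse liver, which attach glucuronic acid, sulfate or glutathione to bilirubin, hormones, bile acids, drugs and reactive compounds. Members were the genes of the count table whose symbol belongs to a numbered Ugt, Sult or Gst class (alpha, mu, omega, pi, theta or kappa for Gst), with a mean of at least 0.5 CPM (counts scaled to a common library size, here from column totals) over 24 libraries, pseudogenes left out. This gave 34 of 22355 genes, of which 14 are Ugt, 2 Sult and 18 Gst genes. Of 44 matching names, 1 was a pseudogene and 9 lay under the minimum, 8 of them Sult genes. Gsta5, at a mean of 0.541 CPM, was the member nearest to the minimum, and Ugt1a10, at 0.366 CPM, was the nearest gene under it. RefSeq holds 63 protein-coding genes with names of this kind, and 21 of them, among them Gstk1, Ugt2b1, Ugt1a6a, Sult1b1 and Sult1d1, were not analysed here because the count table has no row for them. Its rows follow the text order of Entrez numbers and end at 50932, and all 21 sort after that. Sums and shares therefore cover only the genes with a row.

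The livers came from diet-induced obese mice given vehicle or IUB288, a code-named agonist of the glucagon receptor, for 4 d. One group of 8 mice received vehicle and was sampled 22 h after its last injection, another 8 mice received IUB288 and were sampled 4 h after the last injection, and the remaining 8 received IUB288 and were sampled 22 h after it. All 3 groups were obese, and the sources used here do not give strain, sex, age, diet or dose. RNA-seq counts of whole liver compare the drug with vehicle at a matched 22 h, while at 4 h the drug and the time since the last injection cannot be told apart. The same 8 vehicle livers served both comparisons with vehicle, and 22 h against 4 h compares the treated groups with each other.

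Conjugation makes lipophilic compounds more soluble in water and so ready for export into bile or blood. Ugt enzymes sit in the endoplasmic reticulum and use UDP-glucuronate, most Sult and Gst enzymes are cytosolic and use PAPS (the activated form of sulfate) and glutathione. The hepatocyte is the main site of these reactions, and many of the genes are known targets of nuclear receptors and other sensors of foreign compounds.

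The Ugt1a genes Ugt1a1, Ugt1a5, Ugt1a6b and Ugt1a9 did not move in 1 direction, and their transcripts differ at the start. On chromosome 1 each of these 4 genes has an exon of its own, spliced to 4 exons that all 6 Ugt1a members share, at chr1:88215044-88215175, chr1:88215795-88215882, chr1:88216138-88216357 and, for the last, from chr1:88218127 on (GRCm38, plus strand, GENCODE M21). The first exons lie at chr1:88070800-88071678 for Ugt1a9 (Entrez 394434), chr1:88166012-88166903 for Ugt1a5 (Entrez 394433) and chr1:88211959-88212871 for Ugt1a1 (Entrez 394436), and the exon of Ugt1a6b (Entrez 394435) that joins the shared part at chr1:88106862-88107799. In 1 annotated transcript of Ugt1a6b, an upstream exon in common with Ugt1a7c is joined to a shorter form of that exon, chr1:88106941-88107799. The junctions are shown because they mark where reads stop telling these genes apart, with the last 30 bases of the gene's own exon in lower case and the first 30 bases of the shared exon in capitals.
Ugt1a9: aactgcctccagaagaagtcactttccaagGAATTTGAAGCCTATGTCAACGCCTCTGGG
Ugt1a6b: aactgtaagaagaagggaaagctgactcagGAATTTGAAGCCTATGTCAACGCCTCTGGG
Ugt1a5: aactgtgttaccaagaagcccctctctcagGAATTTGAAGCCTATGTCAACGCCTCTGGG
Ugt1a1: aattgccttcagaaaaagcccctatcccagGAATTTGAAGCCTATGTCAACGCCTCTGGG
On the side of the own exon, any pair of the 4 had 14 to 23 of 30 bases equal, and on the shared side all 30. Ugt1a2, which has the same shared exons, was counted at 1.05 ± 0.198, 0.975 ± 0.261 and 0.912 ± 0.211 CPM in vehicle, 4 h and 22 h livers (SD, n = 8), so counts from the shared exons were not given to every Ugt1a gene. Ugt1a6b shared 79.6% of its 50-base stretches with Ugt1a6a, which was not analysed here, and its counts may include reads of that gene. Gm20528, on the opposite strand, overlaps the Ugt1a genes, and whether the counts kept the strand is not given in the sources used here.

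Library totals were 13.99 to 44.07 M counts, and the 10 most counted genes took 24.1% to 26.3% of counts in vehicle livers and 19.6% to 21.7% in treated livers. The 5 hepatocyte markers summed to 60857 to 97420.1 CPM in the vehicle group, 52430.1 to 75074 in the 4 h group and 45239 to 68292 in the 22 h group, with 4 of 5 lower and 1 higher at 4 h, and 3 lower and 2 higher at 22 h. For all markers, lower and higher mean a limma-voom adjusted p under 0.05 against vehicle. Of all genes, 22.5% were lower and 21.7% higher by this measure at 4 h, and 19.2% and 17.6% at 22 h. Stellate markers spanned 529 to 1179, 297 to 511 and 176 to 493 CPM in the same 3 groups, with 4 of 6 lower at 4 h and 5 of 6 at 22 h. Endothelial markers spanned 231 to 477, 262 to 315 and 108 to 292 CPM, with 2 and 6 of 6 lower. Kupffer cell markers spanned 123 to 433, 115 to 197 and 55.6 to 206 CPM (2 and 3 of 5 lower), biliary markers spanned 94.5 to 532, 61.6 to 250.3 and 71.8 to 177 CPM (2 and 2 of 6 lower) and erythroid markers spanned 212 to 470.1, 180.5 to 279.7 and 123 to 214 CPM (4 of 5 lower and 1 higher at both times). At 4 h every tested stellate, endothelial and biliary marker had a log2 change below 0 (at most -0.279, -0.299 and -0.257), passing or not. At 22 h the highest changes of the same lists were -0.453, -0.569 and 0.317, so the biliary markers went both ways. The Kupffer cell markers reached 0.511 at 4 h. Vehicle replicate 1 stood apart, with 6 fat markers at 4235 CPM beside a vehicle median of 60.3, and with no treated liver above 40.2. The 3 small intestine markers spanned 215 to 349, 99.6 to 154 and 89.5 to 186 CPM, with 1 of 2 tested lower at both times. Nearly all of that sum was Fabp2, and Lct was at most 0.161 CPM in any liver. The part of these markers in the members' changes was not tested. Kidney markers were at most 0.0440 CPM and pancreas markers at most 0.0537 CPM in every liver.

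Of the 34 members, 12 were higher and 8 lower at 4 h than in vehicle livers at an adjusted p under 0.05, against 21.7% higher, 22.5% lower and 44.2% in either direction of 11508 genes tested. At 22 h, 10 were higher and 7 lower, against 17.6% and 19.2% of all genes (36.8% in either direction). The median log2 change of the members was 0.02 at 4 h and 0.02 at 22 h, beside -0.07 and -0.02 over all genes. Between the 2 times, 2 members were higher and 2 lower at 22 h than at 4 h, against 14.3% and 15% of all genes (29.3% in either direction). In bulk liver, fewer cells of a type and less RNA per cell cannot be told apart. The labels carry a number after the group name, which they do not explain and which is called the library number here. Within the livers with library numbers 1 to 12 (4 against 4), 10 members were higher and 7 lower at 4 h, beside 13% and 12% of all genes there. At 22 h that run gave 8 and 5, beside 5.59% and 4.99%. Within numbers 13 to 24 the counts were 9 and 6 at 4 h, beside 14.5% and 12.9%, and 8 and 6 at 22 h, beside 13.3% and 14.7%. At 22 h against 4 h, numbers 1 to 12 gave 0 higher and 0 lower, beside 5.95% and 6.73% of all genes, and numbers 13 to 24 gave 2 and 1, beside 10.9% in each direction. Without vehicle replicate 1 the counts were again 12 and 8 at 4 h, beside 22.3% and 21.7%, and 10 and 7 at 22 h, beside 17.8% and 18.8%.

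Gsta5 and Gstp2 lay under the minimum of 0.5 CPM in vehicle livers and became members through the treated groups, so the choice of members favours a higher value after treatment for both. Their differences from vehicle are given as a description, with no test. Over the other 32 members, 10 were higher and 8 lower at 4 h, beside 21.7% and 22.5% of all genes. At 22 h the counts were 9 and 7, beside 17.6% and 19.2%. At 22 h against 4 h they were 2 and 1, beside 14.3% and 15%.

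**Figure D1:**
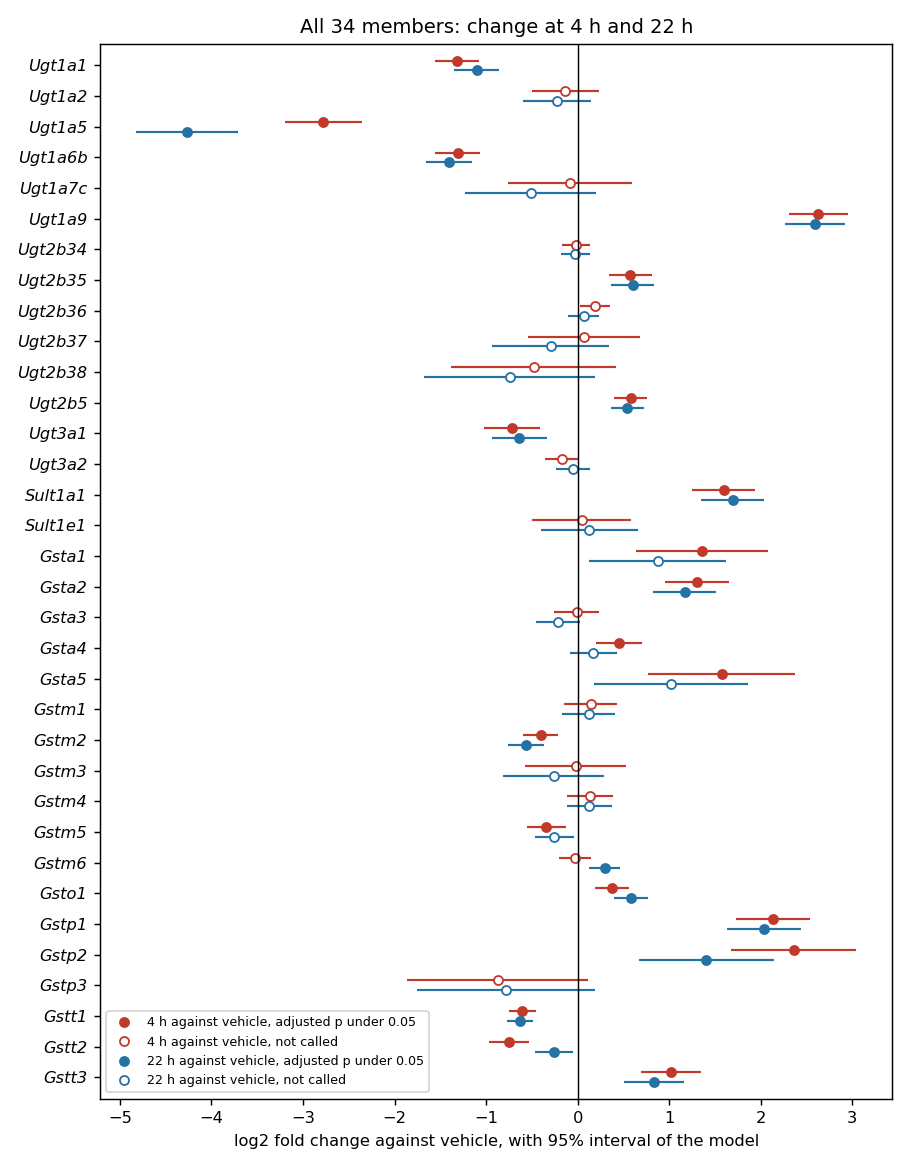
Log2 fold change against vehicle of each of the 34 members at 4 h (red) and 22 h (blue), with the 95% interval of the limma-voom model over 24 livers. Filled circles passed an adjusted p of 0.05, and Ugt1a9 at the right and Ugt1a5 at the left lie farthest from 0. Gsta5 and Gstp2 became members through the treated groups, which favours a higher value for both.

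Ugt1a9, an enzyme that glucuronidates phenols and many drugs, was higher after IUB288, and Ugt1a1, the bilirubin-conjugating enzyme, was lower. Ugt1a9 ran from 24.3 to 60.98 CPM in vehicle livers (median 38.96), from 212 to 316 CPM at 4 h (median 219.6) and from 157 to 275 CPM at 22 h (median 232). Every treated liver lay above every vehicle liver. Ugt1a9 had a log2 fold change of 2.63 ± 0.16 at 4 h (limma-voom adjusted p = 1.47e-12) and 2.59 ± 0.16 at 22 h (adjusted p = 1.03e-11), which is 6.19-fold and 6.03-fold. The 22 h level differed from the 4 h level by -0.04 on the log2 scale (95% interval -0.35 to 0.27, limma-voom adjusted p = 0.882).

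Ugt1a1 ran from 209 to 394 CPM in vehicle livers (median 289.8), from 98.9 to 148 CPM at 4 h (median 109.5) and from 114 to 166 CPM at 22 h (median 131). All 16 treated livers lay below the lowest vehicle liver, and the level was 2.49-fold lower at 4 h and 2.15-fold lower at 22 h. Against vehicle, the log2 fold change of Ugt1a1 was -1.32 ± 0.12 at 4 h (limma-voom adjusted p = 1.66e-09) and -1.10 ± 0.12 at 22 h (adjusted p = 1.06e-07). The difference between the times was 0.21 on the log2 scale (95% interval -0.03 to 0.45, limma-voom adjusted p = 0.184).

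Ugt1a6b ran from 52.6 to 90.4 CPM in vehicle livers (median 82.6), from 24.3 to 34.3 CPM at 4 h (median 31.3) and from 23.2 to 40.1 CPM at 22 h (median 25.8). Ugt1a6b belongs to the Ugt1a6 pair, enzymes of small phenols, and its treated and vehicle livers did not overlap either. As a log2 fold change against vehicle, Ugt1a6b stood at -1.31 ± 0.12 at 4 h (limma-voom adjusted p = 2.6e-09) and -1.41 ± 0.12 at 22 h (adjusted p = 3.04e-09). Between the times the difference was -0.09 on the log2 scale (95% interval -0.36 to 0.17, limma-voom adjusted p = 0.633).

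Ugt1a5 fell farthest of the members and was the one Ugt gene whose level differed between 4 h and 22 h. Ugt1a5 ran from 43.4 to 76.7 CPM in vehicle livers (median 58.5), from 4.05 to 18.6 CPM at 4 h (median 8.25) and from 2.29 to 5.67 CPM at 22 h (median 2.81). The vehicle livers lay above all treated livers, while the 4 h and 22 h livers overlapped. The log2 fold change was -2.78 ± 0.20 at 4 h (limma-voom adjusted p = 5.71e-11) and -4.26 ± 0.27 at 22 h (adjusted p = 1.82e-11), or 6.86-fold and 19.2-fold lower. It was lower at 22 h than at 4 h by 2.80-fold, a log2 difference of -1.49 ± 0.31 (limma-voom adjusted p = 0.000505), with 8 of 8 livers at 22 h below the 4 h mean. Within library numbers 1 to 12 that difference was -1.07 with an adjusted p of 0.0815.

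**Figure D2:**
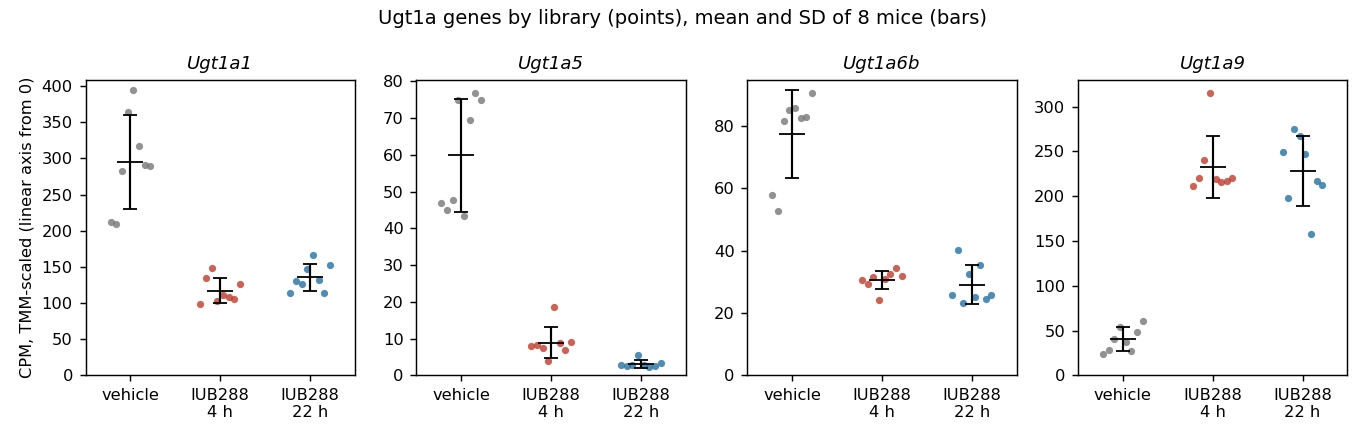
CPM of Ugt1a1, Ugt1a5, Ugt1a6b and Ugt1a9 in each of 24 livers (points) with the mean and SD of 8 mice (bars), on linear axes from 0, 1 panel per gene. Treated livers lie below all vehicle livers for the first 3 genes and above them for Ugt1a9.

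In vehicle livers Ugt1a1 held the most Ugt1a counts, and in treated livers Ugt1a9 did. The summed CPM of the 6 Ugt1a members was 474 ± 91.8, 391 ± 32.96 and 397 ± 43.4 in vehicle, 4 h and 22 h livers (SD, n = 8). Ugt1a1 held 62.1% of that sum in vehicle livers (55.9% to 70.1%), 29.98% at 4 h and 34.2% at 22 h. Ugt1a9 held 8.41% in vehicle livers (5.54% to 11.8%), 59.4% at 4 h and 57.2% at 22 h (48.02% to 64.1%). The highest Ugt1a9 share in a vehicle liver was far under the lowest in a treated liver. Ugt1a6b went from 16.4% to 7.92% and 7.46%, and Ugt1a5 from 12.8% to 2.32% and 0.780%. Per kb of a gene's own exon, Ugt1a1 stood at 323, 128 and 148 CPM in vehicle, 4 h and 22 h livers and Ugt1a9 at 45.7, 265 and 259, so their order reversed. The same levels per kb were 82.4, 32.7 and 30.96 for Ugt1a6b and 67.1, 10.01 and 3.49 for Ugt1a5. Levels per kb assume that counts came from the own exon only. The shares are of counts and were not tested.

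**Figure D3:**
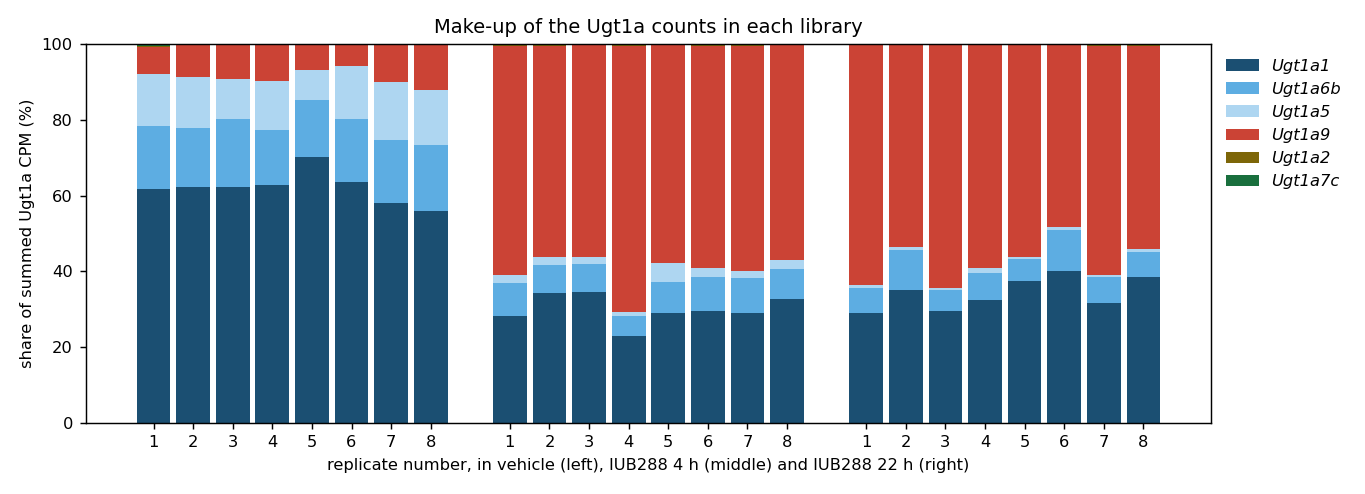
Share of the summed Ugt1a CPM (%) of each of 6 genes in each liver, 8 vehicle livers at the left, 8 at 4 h in the middle and 8 at 22 h at the right. Ugt1a9 (red) takes 5.54% to 11.8% in vehicle livers and at least 48.02% in treated livers.

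The promoter windows of Ugt1a9, which was higher at both times, and of Ugt1a1 and Ugt1a5, which were lower, are shown, from 250 bases before to 50 bases after the RefSeq start (GRCm38.p6, plus strand), with the single match found in capitals.
Ugt1a9, chr1:88070529-88070828: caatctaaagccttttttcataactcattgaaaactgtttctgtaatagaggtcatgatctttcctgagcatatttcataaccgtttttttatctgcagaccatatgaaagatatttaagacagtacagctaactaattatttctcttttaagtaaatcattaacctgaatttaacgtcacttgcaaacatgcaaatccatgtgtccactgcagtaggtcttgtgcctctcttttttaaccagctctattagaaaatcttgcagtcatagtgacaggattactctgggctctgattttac
Ugt1a1, chr1:88211709-88212008: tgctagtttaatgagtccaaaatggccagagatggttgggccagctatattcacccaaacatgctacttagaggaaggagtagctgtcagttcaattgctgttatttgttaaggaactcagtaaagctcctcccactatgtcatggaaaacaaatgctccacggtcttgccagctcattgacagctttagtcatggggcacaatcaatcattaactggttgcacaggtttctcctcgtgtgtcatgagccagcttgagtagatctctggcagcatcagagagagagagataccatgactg
Ugt1a5, chr1:88165762-88166061: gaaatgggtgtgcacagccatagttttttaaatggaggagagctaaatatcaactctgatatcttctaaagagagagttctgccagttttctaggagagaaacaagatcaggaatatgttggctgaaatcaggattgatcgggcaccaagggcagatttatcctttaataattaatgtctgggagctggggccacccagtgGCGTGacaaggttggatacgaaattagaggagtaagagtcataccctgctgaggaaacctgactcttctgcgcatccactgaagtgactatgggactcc
Windows of 30 of the 34 members were in the table, and 3 motifs were searched on both strands. The antioxidant response element core TGACNNNGC was found in 2 of 30 members (Gsta3 and Gstm5), beside 14% of the 27025 genes with a window. The cAMP response element TGACGTCA was found in 0 of 30, beside 2.03% of those genes. The dioxin response element core GCGTG was found in 7 of 30, beside 35.2% of those genes. The 7 included Ugt1a5, at 49 bases before the start, as well as Gsta1, Gsta2, Gstm1, Gstm5, Gstp1 and Gstp3. In Gstm5 one GCGTG match on the minus strand overlaps the TGACNNNGC match. A match is a run of letters and not a measured site.

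The Ugt2b genes of chromosome 5, whose enzymes act on steroids, bile acids and drugs, had 2 of 6 members higher and 0 lower at each time, beside 21.7% and 22.5% of all genes at 4 h and 17.6% and 19.2% at 22 h. Ugt2b5 (Entrez 22238, chr5:87124946-87140340) and Ugt2b35 (Entrez 243085, chr5:87000860-87013274) were higher at both times, and Ugt2b34, Ugt2b36, Ugt2b37 and Ugt2b38 did not pass the test at either. Ugt2b5 ran from 738 to 1057 CPM in vehicle livers (median 966), from 1179 to 1581 CPM at 4 h (median 1418) and from 1052 to 1615 CPM at 22 h (median 1362). At 4 h all treated livers lay above the vehicle livers, and at 22 h the lowest treated liver fell within the vehicle range. Ugt2b5 had a log2 fold change of 0.58 ± 0.09 at 4 h (limma-voom adjusted p = 6.36e-06) and 0.54 ± 0.09 at 22 h (adjusted p = 4.09e-05). Ugt2b5 shares 41.7% of its 50-base stretches with other genes, chiefly Ugt2b38, so part of its count is uncertain.

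Ugt2b35 ran from 219.5 to 389 CPM in vehicle livers (median 332), from 394 to 542 CPM at 4 h (median 460.4) and from 363 to 607 CPM at 22 h (median 515). Its vehicle and treated ranges were separate at 4 h and overlapped at 22 h. Against vehicle, the log2 fold change of Ugt2b35 was 0.58 ± 0.11 at 4 h (limma-voom adjusted p = 0.000191) and 0.60 ± 0.11 at 22 h (adjusted p = 0.000239). Within library numbers 13 to 24 neither change passed the test, with log2 changes of 0.41 (adjusted p = 0.0543) and 0.30 (adjusted p = 0.139). The 2 genes with the highest CPM among those that did not pass, Ugt2b36 and Ugt2b34, had means of 978 ± 136, 1109 ± 76.05 and 1024 ± 125 CPM and 805 ± 98.8, 791 ± 45.8 and 792 ± 87.8 CPM in vehicle, 4 h and 22 h livers. Ugt2b37 and Ugt2b38 stayed under 8 CPM in every liver.

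Ugt3a1 (Entrez 105887, chr15:9279822-9315038), of a family known to use N-acetylglucosamine as its sugar, was lower at both times. Ugt3a1 ran from 62.4 to 111 CPM in vehicle livers (median 93.9), from 46.1 to 76.96 CPM at 4 h (median 51.8) and from 37.7 to 82.4 CPM at 22 h (median 56.05). The groups overlapped at both times, and all 8 livers of each treated group lay below the vehicle mean. As a log2 fold change against vehicle, Ugt3a1 stood at -0.72 ± 0.15 at 4 h (limma-voom adjusted p = 0.000319) and -0.64 ± 0.15 at 22 h (adjusted p = 0.00152). The 22 h change did not pass within library numbers 1 to 12, at -0.44 (adjusted p = 0.188). Its neighbour Ugt3a2 had 542 ± 85.8, 478 ± 53.99 and 519.8 ± 55.4 CPM in vehicle, 4 h and 22 h livers and did not pass, although its 4 h change did so under upper-quartile scaling, without scaling, with sample weights and without vehicle replicate 2.

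Sult1a1 (Entrez 20887, chr7:126672865-126690443), which sulfonates phenols, was higher at both times. Sult1a1 ran from 237 to 369.9 CPM in vehicle livers (median 279), from 595 to 1689.8 CPM at 4 h (median 762) and from 700.1 to 1405 CPM at 22 h (median 881). All treated livers were above all vehicle livers, and the spread was widest at 4 h, where replicate 4 held the highest value. The log2 fold change was 1.59 ± 0.17 at 4 h (limma-voom adjusted p = 2.11e-08) and 1.69 ± 0.17 at 22 h (adjusted p = 2.87e-08), which is 3.02-fold and 3.24-fold. The difference between the times was 0.10 on the log2 scale (95% interval -0.25 to 0.45, limma-voom adjusted p = 0.711). Sult1a1 overlaps exons of Sgf29 on the other strand. Sult1e1, the oestrogen sulfotransferase, was at 1.30 ± 0.424, 1.35 ± 0.558 and 1.41 ± 0.577 CPM and did not pass at either time.

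Gstp1 (Entrez 14870, chr19:4035411-4037912), the main pi-class enzyme of mouse liver, had the largest rise among Gst genes with at least 5 CPM. Gstp1 ran from 63.6 to 152 CPM in vehicle livers (median 91.2), from 323 to 705 CPM at 4 h (median 419.7) and from 235 to 556 CPM at 22 h (median 403). The treated livers all lay above the vehicle livers. Gstp1 had a log2 fold change of 2.14 ± 0.20 at 4 h (limma-voom adjusted p = 2.58e-09) and 2.03 ± 0.20 at 22 h (adjusted p = 2.08e-08), or 4.40-fold and 4.10-fold. The difference between the times was -0.10 on the log2 scale (95% interval -0.51 to 0.31, limma-voom adjusted p = 0.753).

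Gstp2, its neighbour (Entrez 14869, chr19:4040288-4042221), was counted at 0.304 ± 0.125, 1.64 ± 0.721 and 0.822 ± 0.322 CPM in vehicle, 4 h and 22 h livers. Its log2 fold change was 2.36 ± 0.33 at 4 h and 1.41 ± 0.36 at 22 h. Gstp2 was lower at 22 h than at 4 h by 1.94-fold (log2 difference -0.95, limma-voom adjusted p = 0.00637), but not within either run of library numbers, at -0.94 in each and adjusted p of 0.0774 and 0.132. Gstp2 shares 49.1% of its 50-base stretches with Gstp1, which was counted at far higher levels, so Gstp1 reads may be counted as Gstp2. Gstp3, with 2.27 ± 2.25, 1.05 ± 0.930 and 0.962 ± 0.503 CPM, did not pass.

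Among the alpha-class genes, which detoxify lipid peroxidation products and drug metabolites, 4 of 5 were higher at 4 h and 1 at 22 h, beside 21.7% and 17.6% of all genes. Gsta5, 1 of the 4, became a member through the treated groups, which favours a higher value for it. Gsta1, Gsta2 and Gsta4 were the others. Gsta2 ran from 15.9 to 43.7 CPM in vehicle livers (median 31.6), from 63.02 to 81.4 CPM at 4 h (median 73.3) and from 37.8 to 83.5 CPM at 22 h (median 67.8). The 4 h livers all exceeded the vehicle livers, and at 22 h replicate 6, at 37.8 CPM, fell among them. Against vehicle, the log2 fold change of Gsta2 was 1.30 ± 0.17 at 4 h (limma-voom adjusted p = 6.34e-07) and 1.17 ± 0.17 at 22 h (adjusted p = 8.33e-06). The difference between the times was -0.13 on the log2 scale (95% interval -0.45 to 0.19, limma-voom adjusted p = 0.566).

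Gsta1 ran from 4.18 to 19.2 CPM in vehicle livers (median 13.3), from 17.1 to 56.6 CPM at 4 h (median 28.2) and from 5.83 to 38.98 CPM at 22 h (median 22.5). The ranges overlapped at both times. As a log2 fold change against vehicle, Gsta1 stood at 1.35 ± 0.35 at 4 h (limma-voom adjusted p = 0.0028) and 0.87 ± 0.36 at 22 h (adjusted p = 0.0606), and the second did not pass. It passed at 22 h without 22 h replicate 6, without vehicle replicate 2 and with sample weights, and the 4 h change did not pass within library numbers 1 to 12 (1.16, adjusted p = 0.0624). Gsta1 shares 90.5% of its 50-base stretches with other genes (75.7% with Gm3776), and the counts of Gsta1, Gsta2 and Gsta5 can hold reads of one another.

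Gsta4, which conjugates 4-hydroxynonenal, was at 84.5 ± 16.2, 114 ± 12.03 and 95.03 ± 19.9 CPM in vehicle, 4 h and 22 h livers. It had a log2 fold change of 0.45 ± 0.12 at 4 h (adjusted p = 0.00456) and 0.17 ± 0.12 at 22 h (adjusted p = 0.302), by limma-voom. Within library numbers 1 to 12 the 4 h change was 0.31 (adjusted p = 0.137). Gsta5 rested on a few counts per library, 3 to 19 in vehicle livers and 14 to 43 at 4 h, a log2 fold change of 1.57 ± 0.39. Gsta3, the member with the highest CPM, was at 2055 ± 291, 2043 ± 300.1 and 1795 ± 408 CPM and did not pass at either time.

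The theta-class genes, whose enzymes act on small halogenated compounds, lie side by side on chromosome 10 and did not move in 1 direction. Gstt3 (Entrez 103140, chr10:75774117-75781422) was higher at both times, and Gstt1 (Entrez 14871, chr10:75783813-75798584) and Gstt2 (Entrez 14872, chr10:75831842-75837419) were lower. Gstt3 ran from 24.6 to 39.1 CPM in vehicle livers (median 30.5), from 44.9 to 97.3 CPM at 4 h (median 62.01) and from 44.1 to 81.5 CPM at 22 h (median 54.7). All treated livers were above all vehicle livers. The log2 fold change was 1.02 ± 0.16 at 4 h (limma-voom adjusted p = 9.71e-06) and 0.83 ± 0.16 at 22 h (adjusted p = 0.000277). Gstt3 shares 12.2% of its 50-base stretches with Gm20441, a model that overlaps it.

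Gstt1 ran from 130.1 to 185 CPM in vehicle livers (median 178), from 103 to 130.2 CPM at 4 h (median 111) and from 96.95 to 129 CPM at 22 h (median 109.8). Vehicle replicate 1, at 130.1 CPM, was the low vehicle liver and lay just inside the 4 h range, and the other 7 vehicle livers were at 168 CPM or more. Gstt1 had a log2 fold change of -0.60 ± 0.07 at 4 h (limma-voom adjusted p = 1.48e-07) and -0.63 ± 0.07 at 22 h (adjusted p = 2.45e-07). Without vehicle replicate 1 the changes were -0.66 and -0.68.

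Gstt2 ran from 25.7 to 39.6 CPM in vehicle livers (median 34.8), from 14.8 to 26.1 CPM at 4 h (median 20.3) and from 21.6 to 34.6 CPM at 22 h (median 27.3). The groups overlapped slightly at 4 h and broadly at 22 h. Against vehicle, the log2 fold change of Gstt2 was -0.75 ± 0.11 at 4 h (limma-voom adjusted p = 2.46e-06) and -0.26 ± 0.10 at 22 h (adjusted p = 0.043). Gstt2 was higher at 22 h than at 4 h by 0.49 ± 0.11 on the log2 scale (limma-voom adjusted p = 0.000917), with all 8 livers at 22 h above the 4 h mean. The 22 h call against vehicle was lost without any 1 of 11 livers (vehicle replicates 2 to 6, 4 h replicate 2 and 22 h replicates 1, 3, 4, 6 and 8), where the adjusted p was 0.0507 to 0.0997. The 22 h against 4 h call was lost within library numbers 1 to 12 (0.40, adjusted p = 0.109).

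**Figure D4:**
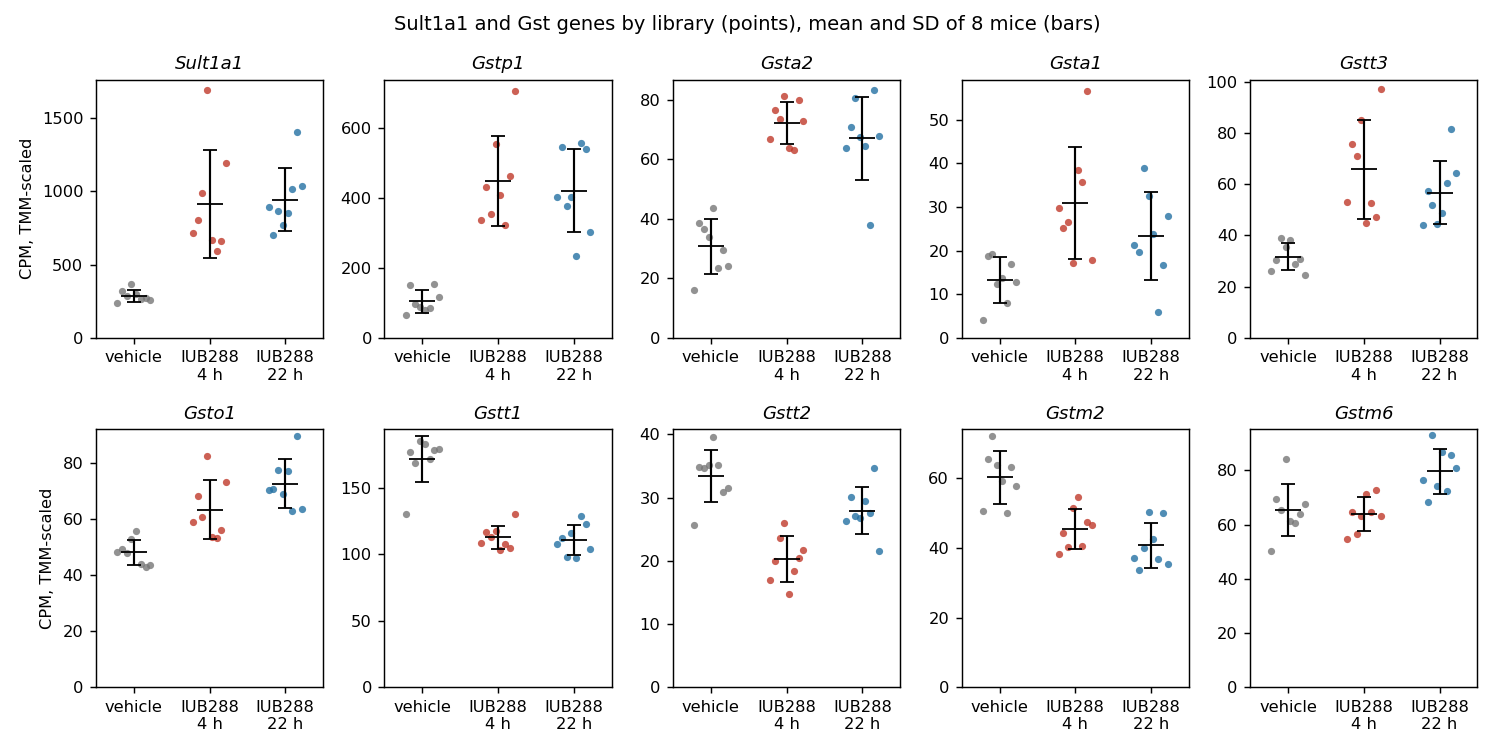
CPM of Sult1a1 and 9 Gst genes in each liver (points) with the mean and SD of 8 mice (bars), on linear axes from 0, 1 panel per gene. The treated livers of Sult1a1, Gstp1 and Gstt3 lie above all vehicle livers, and Gstt2 is lowest at 4 h.

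Of the 6 mu-class genes of chromosome 3, which conjugate epoxides and other electrophiles, 0 were higher and 2 lower at 4 h, beside 21.7% and 22.5% of all genes. At 22 h, 1 was higher and 1 lower, which is close to the 17.6% and 19.2% of all genes. Gstm2 ran from 50.1 to 72.03 CPM in vehicle livers (median 61.1), from 38.3 to 54.7 CPM at 4 h (median 45.4) and from 33.7 to 50.4 CPM at 22 h (median 38.6). The groups overlapped at both times, and all 8 livers of each treated group lay below the vehicle mean. As a log2 fold change against vehicle, Gstm2 stood at -0.40 ± 0.09 at 4 h (limma-voom adjusted p = 0.00109) and -0.56 ± 0.09 at 22 h (adjusted p = 5.74e-05). Within library numbers 13 to 24 the 4 h change was -0.28 (adjusted p = 0.1).

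Gstm6 had 65.4 ± 9.63, 63.8 ± 6.29 and 79.7 ± 8.31 CPM in vehicle, 4 h and 22 h livers and was described for its difference between the times. On the log2 scale it was higher at 22 h than in vehicle livers by 0.29 ± 0.08 (limma-voom adjusted p = 0.00763) and higher than at 4 h by 0.32 ± 0.08 (adjusted p = 0.00435). Both calls were lost within library numbers 1 to 12, where they were 0.23 (adjusted p = 0.338) and 0.39 (adjusted p = 0.111). Gstm5, which 4933431E20Rik overlaps on the other strand, had a 4 h log2 fold change of -0.34 ± 0.10 (adjusted p = 0.01), and in neither run of library numbers alone did it pass (adjusted p = 0.0821 and 0.162). Gstm1, with 819.9 ± 126, 911 ± 147 and 914 ± 231 CPM in vehicle, 4 h and 22 h livers, Gstm3, with 143 ± 49.9, 142 ± 48.8 and 123 ± 48.8, and Gstm4, with 44.2 ± 6.82, 47.7 ± 8.14 and 47.8 ± 9.88, did not pass.

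Gsto1 (Entrez 14873, chr19:47854973-47864790), the omega-class enzyme that reduces dehydroascorbate, was higher at both times. Gsto1 ran from 42.8 to 55.9 CPM in vehicle livers (median 48.02), from 53.3 to 82.6 CPM at 4 h (median 59.8) and from 62.9 to 89.6 CPM at 22 h (median 70.5). The 4 h livers overlapped the vehicle livers, and the 22 h livers lay above all of them. The log2 fold change was 0.38 ± 0.09 at 4 h (limma-voom adjusted p = 0.00121) and 0.58 ± 0.09 at 22 h (adjusted p = 1.72e-05). Within library numbers 13 to 24 the 4 h change was 0.32 (adjusted p = 0.114). The 22 h level differed from the 4 h level by 0.20 on the log2 scale (95% interval 0.03 to 0.38, limma-voom adjusted p = 0.0786), and this passed under upper-quartile scaling, the stricter filter, no scaling, sample weights, or without 22 h replicate 6, 4 h replicate 4 or 4 h replicate 8.

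Read by complete separation of the groups, 9 members lay above all vehicle livers at 4 h and 3 below, beside 9.91% and 6.17% of all genes. The 9 include Gsta5 and Gstp2, which became members through the treated groups, so the choice of members favours their separation. The others were Gsta2, Gstp1, Gstt3, Sult1a1, Ugt1a9, Ugt2b35 and Ugt2b5. At 22 h the counts were 5 and 4, beside 4.2% and 3.22%. No member separated the 22 h from the 4 h livers, beside 4.72% higher and 5.98% lower of all genes. The 13 members with no call in any comparison were Gsta3, Gstm1, Gstm3, Gstm4, Gstp3, Sult1e1, Ugt1a2, Ugt1a7c, Ugt2b34, Ugt2b36, Ugt2b37, Ugt2b38 and Ugt3a2. The summed CPM of all 34 was 8146 ± 985, 9789.7 ± 937 and 9459 ± 550.4 in vehicle, 4 h and 22 h livers (SD, n = 8).

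Of 3 tested genes of UDP-glucuronate supply, 2 were higher and 0 lower at 4 h, and 2 and 0 at 22 h, with median log2 fold changes of 0.39 and 0.46. The same values over all genes, against which this list and those that follow are read, were 21.7% higher and 22.5% lower at 4 h, 17.6% and 19.2% at 22 h, and medians of -0.07 and -0.02. Ugp2, which makes UDP-glucose, had a log2 fold change of 0.79 ± 0.09 at 4 h (adjusted p = 4.92e-08) and 0.50 ± 0.09 at 22 h (adjusted p = 7.84e-05), in limma-voom log2 units. Ugdh, which oxidises UDP-glucose to UDP-glucuronate, had a log2 fold change of 0.39 ± 0.13 at 4 h (adjusted p = 0.02) and -0.12 ± 0.13 at 22 h (adjusted p = 0.497). Slc35d1, which carries UDP-glucuronate into the endoplasmic reticulum, had a log2 fold change of -0.01 ± 0.10 at 4 h (adjusted p = 0.951) and 0.46 ± 0.10 at 22 h (adjusted p = 0.000661). The log2 difference of 22 h from 4 h was -0.52 for Ugdh (adjusted p = 0.00434), and 0.47 for Slc35d1 (adjusted p = 0.000481).

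Of 5 tested genes of PAPS supply and sulfate handling, 0 were higher and 1 lower at 4 h, and 2 and 1 at 22 h, with medians of 0.09 and 0.02. Papss1 and Papss2, the PAPS synthases, had log2 fold changes of -0.63 and 0.19 at 4 h and of -0.98 and 0.43 at 22 h (limma-voom adjusted p = 1.89e-05, 0.13, 1.65e-07 and 0.00194). Slc26a1, a sulfate transporter, had a log2 fold change of 0.14 ± 0.08 at 4 h (adjusted p = 0.172) and 0.42 ± 0.08 at 22 h (adjusted p = 0.000447). Of 6 genes of glutathione supply, 2 were higher and 1 lower at 4 h, and 1 and 1 at 22 h, with medians of 0.19 and 0.17. Gclc, the catalytic subunit of the rate-limiting step of glutathione synthesis, had a log2 fold change of 0.08 ± 0.13 at 4 h (adjusted p = 0.645) and 0.64 ± 0.13 at 22 h (adjusted p = 0.000477). Gsr, glutathione reductase, had a log2 fold change of 0.31 ± 0.08 at 4 h (adjusted p = 0.00207) and 0.17 ± 0.08 at 22 h (adjusted p = 0.0953), and Ggct had a log2 fold change of -1.01 ± 0.14 at 4 h (adjusted p = 1.84e-06) and -0.63 ± 0.13 at 22 h (adjusted p = 0.000584). The 1 tested gene of the other glutathione transferases passed at neither time, with log2 fold changes of -0.01 and 0.14.

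Of 10 genes of methyl, acetyl and amino acid conjugation, 1 was higher and 4 lower at 4 h, and 2 and 2 at 22 h, with medians of -0.22 and -0.03. Nnmt, which methylates nicotinamide, had a log2 fold change of 3.59 ± 0.18 at 4 h (adjusted p = 4.88e-14) and 2.97 ± 0.17 at 22 h (adjusted p = 7.25e-12), by limma-voom. Tpmt, which methylates thiopurines, had a log2 fold change of -0.59 ± 0.06 at 4 h (adjusted p = 2.1e-08) and -0.42 ± 0.06 at 22 h (adjusted p = 1.04e-05), and Nat2, an arylamine acetyltransferase, had a log2 fold change of -0.65 ± 0.09 at 4 h (adjusted p = 1.2e-06) and -0.06 ± 0.08 at 22 h (adjusted p = 0.582). Of 4 genes that remove conjugates, 2 were higher and 1 lower at 4 h, and 1 and 1 at 22 h, with medians of -0.115 and -0.22. Gusb, the beta-glucuronidase that cleaves glucuronides, had a log2 fold change of 0.74 ± 0.06 at 4 h (adjusted p = 2.67e-10) and 0.23 ± 0.06 at 22 h (adjusted p = 0.00483), and the arylsulfatase Arsb had a log2 fold change of -0.39 ± 0.07 at 4 h (adjusted p = 5.63e-05) and -0.57 ± 0.07 at 22 h (adjusted p = 6.9e-07). The arylsulfatase Arsa had a log2 fold change of 0.16 ± 0.06 at 4 h (adjusted p = 0.027) and 0.13 ± 0.06 at 22 h (adjusted p = 0.0776).

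Of 11 sensors and partners, 3 were higher and 5 lower at 4 h, and 6 and 3 at 22 h, with medians of -0.12 and 0.16. Nr1i3, the constitutive androstane receptor known to act on several Ugt and Sult genes, had a log2 fold change of -1.97 ± 0.18 at 4 h (adjusted p = 2.15e-09) and -0.70 ± 0.17 at 22 h (adjusted p = 0.00191), in limma-voom log2 units. It was 1.26 higher on the log2 scale at 22 h than at 4 h (adjusted p = 4.47e-06). Hnf4a, a hepatocyte regulator of many Ugt genes, had a log2 fold change of 0.56 ± 0.08 at 4 h (adjusted p = 2.86e-06) and 0.75 ± 0.08 at 22 h (adjusted p = 1.18e-07). Arnt, the partner of the dioxin receptor, had a log2 fold change of -0.41 ± 0.06 at 4 h (adjusted p = 1.43e-06) and -0.08 ± 0.06 at 22 h (adjusted p = 0.275). Of 5 efflux pumps of conjugates, 0 were higher and 1 lower at 4 h, and 1 and 3 at 22 h, with medians of -0.11 and -0.47. Abcg2, Abcb1a and Abcc1 had log2 fold changes of -0.47, -0.86 and -1.07 at 22 h (limma-voom adjusted p = 0.00153, 0.00257 and 0.0126). The highest change of the 5 pumps at 22 h was 0.63. Abcc2, which held most of their counts, was at 913 ± 162, 944 ± 81.9 and 1119 ± 123 CPM in vehicle, 4 h and 22 h livers (SD, n = 8). The summed CPM of the 5 was 1137 ± 175, 1138 ± 75.4 and 1289 ± 140 in the same groups.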

How the data were processed

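Counts of 22355 genes in 24 livers, 8 per group, came from 1 table that the authors deposited. Trimming was by cutadapt and alignment by GSNAP to GRCm38, per the submitters' processing notes. The versions, counter, annotation and strand setting are not given in the sources used here. Values were whole numbers, and totals were 13.99 to 44.07 M. Any 2 libraries of a group differed by a chi-square per degree of freedom of at least 19.3 over 84 pairs. None was therefore a copy of another in its group, and pairs across groups were not compared in this way.

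The edgeR test foreseen as the first choice was not run, nor was DESeq2, because a unit check did not accept the quoted layout of the deposited table as counts (its unit is recorded as other). The limma-voom test (limma 3.58.1) took their place. Genes were kept by a filter on the 3 groups (minimum count 10, minimum total 15), which left 11508 genes, all 34 members included. Scaling was by TMM (trims 30% and 5%, factors 0.897 to 1.062), with a voom offset of 0.5 and 1 model of 3 group means (21 residual degrees of freedom). Tests were 2-sided and adjusted by Benjamini-Hochberg over all genes, with a threshold of 0.05. CPM values are TMM-scaled, and ± after a log2 change is its standard error. Code was tested on simulated data.

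Members and gene lists were chosen with earlier results of these data known. Values per liver are given for members with an adjusted p under 0.05 and at least 5 CPM, at most 8 per family by smallest p, and up to 3 genes per list are named. Gstp2, Gstm6 and other members named outside this rule were chosen for their calls or levels. Shared stretches were 50-base runs of GENCODE M21 transcripts found in another gene.

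Replicate numbers 1 to 8 recur in each group, but the labels tie them to no shared animal or day. The deviations of same-numbered livers correlated at -0.219 to 0.134 over 24 pairs, so no pairing was used. Alternatives were other scalings, filters, blocks, library subsets and each library left out. Scaling by column totals alone and sample weights were added after the data were seen.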

Additional observations from a re-analysis of the deposited data

Results flagged for a closer look

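In 102 groups of 8 livers (34 members in 3 groups), 9 held a liver whose gap to the nearest other liver was a large part of the group's range, which chance does in about 1 in 20 groups. Of these 9, vehicle replicate 1, the liver with fat markers, was the low one for Gstt1 (130.1 CPM, next 168 CPM) and the high one for Ugt1a7c (1.94 CPM, next 0.700 CPM). At 4 h, replicate 4 was high for Ugt1a9 at 316 CPM (next 240.3), and replicate 5 for Ugt1a5 at 18.6 CPM (next 9.14). Replicate 8 at 4 h was high for both Gstp2 (3.27 CPM) and Gstp3 (3.23 CPM), and replicate 7 for Gsta5 (1.69 CPM). At 22 h, replicate 4 was high for Ugt1a5 at 5.67 CPM (next 3.44), and replicate 6 was low for Gsta2 at 37.8 CPM (next 63.8).

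The livers sampled 22 h and 4 h after the last IUB288 injection differed for 4 of 34 members, by limma-voom. Over all genes tested, 29.3% differed between these times at the same threshold. With no vehicle group at 4 h, the drug and the time since injection cannot be told apart in these differences. Ugt1a5 was lower at 22 h by a log2 difference of -1.49 and Gstp2 by -0.95. Gstt2 was higher at 22 h by 0.49 and Gstm6 by 0.32. The 4 h and 22 h livers overlapped for each of these genes.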

How the results depend on the processing

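No member that passed the test changed sign under any alternative run, over 3 scalings beside TMM, 2 filters, blocks, library subsets, sample weights and each library left out. With 1 library left out, 12 to 13 members were higher and 8 to 9 lower at 4 h, and 10 to 12 and 6 to 8 at 22 h. At 22 h against 4 h the counts were 2 to 3 and 2 to 3. Of the 11612 to 11668 genes tested in these fits, 2389 to 2587 were higher and 2348 to 2723 lower at 4 h. The same fits gave 1857 to 2070 and 1989 to 2230 genes at 22 h, and 1495 to 1767 and 1572 to 1957 between the times. Of the calls of members, only that of Gstt2 at 22 h was lost when 1 library was left out. It was also lost under upper-quartile scaling, median-ratio scaling, no filter and a block for the runs of library numbers (adjusted p = 0.0903, 0.0567, 0.137 and 0.0533). Calls gained without 1 library were Ugt2b36 (vehicle 4, 5 or 8) and Ugt3a2 (vehicle 2) at 4 h, and at 22 h Gsta1, Gsta3 (22 h replicate 6) and Gstm5 (vehicle 5 or 6, 22 h replicate 3 or 5). Gsta5, whose difference from vehicle is given without an adjusted p, is left out of these genes, although the member counts above include it. Between the times Gsta4 was gained (without 22 h replicate 4), as was Gsto1. The runs of library numbers had 4 livers per group. At 22 h against 4 h, numbers 1 to 12 alone gave 0 higher and 0 lower members, beside 5.95% and 6.73% of all genes. Numbers 13 to 24 alone gave 2 and 1, beside 10.9% in each direction. The replicate block, for numbers that do not pair the livers, lost no call and added Gstm5 at 22 h (-0.25, adjusted p = 0.043) and Gsta4 at 22 h against 4 h (-0.28, adjusted p = 0.0477), and 4 of 24 livers correlated best with their own number. Over all genes, upper-quartile scaling turned 1644 higher and 1723 lower genes at 22 h against 4 h into 2307 and 1171 and moved the median at 4 h from -0.07 to -0.14. The stricter filter left out Gsta5 and Ugt1a7c. The edgeR and DESeq2 fits were not run. Members with a mean under 1 CPM (Gsta5, Gstp2, Ugt1a2 and Ugt1a7c) rest on few counts.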

Other observations

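Gstm2-ps1, a row named as a pseudogene and left out of the members, was counted at 264 ± 42.6, 298 ± 53.1 and 286 ± 80.1 CPM in vehicle, 4 h and 22 h livers (SD, n = 8). It holds 14.1% of the 50-base stretches of Gstm1. The dioxin receptor gene Ahr was lower at both times, with log2 fold changes of -0.61 at 4 h and -0.59 at 22 h (limma-voom adjusted p = 2.52e-05 and 7.42e-05). The pregnane X receptor gene Nr1i2 was 0.50 higher on the log2 scale at 4 h (adjusted p = 8.59e-05) and had a log2 fold change of -0.07 at 22 h (adjusted p = 0.592). Both genes were chosen after their values were seen.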
